A study of Homo sapiens with 12 samples.

Results

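Control HK-2 cells were compared between 48 h and 12 h of culture with vehicle and no drug, to describe which functions changed with time alone. HK-2 is an immortalised line of human renal proximal tubular epithelium. The comparison used 6 of the 12 Affymetrix arrays of the series, 3 titled as controls at 48 h and 3 titled as controls at 12 h, and was not paired between times. The other 6 arrays came from cells given CsA, read here as cyclosporine A, for the same times, and they entered the fit only to estimate the spread and for a closing comparison. Each group held 3 biological replicates of the 1 line. Cells were plated on 6-well plates 24 h before vehicle was added, at about 90% confluency, so the control groups had spent 36 h and 72 h on the plate. The medium shared by all groups was a DMEM and Ham's F12 mixture with 5 mM glucose, EGF at 10 ng/ml, hydrocortisone at 36 ng/ml, insulin at 5 µg/ml, Glutamax at 2 mM, transferrin and selenite. The labels list no serum, do not name the vehicle and do not say whether the medium was replaced between 12 h and 48 h. The arrays give no harvest or scan batch here, so culture time and any batch that went with it cannot be told apart.

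Expression is given as the deposited log2 value of 1 probe set per gene, the one with the highest mean over the 12 arrays, so a difference of 1 is 2-fold. Of 54675 probe sets, 10650 genes had such a probe set above 4 on at least 3 arrays and were tested. Differences are 48 h minus 12 h with a moderated standard error (SE, n = 3 and 3), and p-values are from limma with Benjamini-Hochberg adjustment over the 10650 genes at a threshold of 0.05. "Rose" and "fell" are used only of genes past that threshold. The p-values measure the spread between replicate cultures of 1 line. In bulk RNA, fewer cells that express a gene and less of its RNA in each cell cannot be told apart. Genes are described in lists of textbook pathway members, with the share of all tested genes called as the background.

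As background, in cycling cells E2F transcription factors turn on the genes of DNA replication as a cell leaves G1, and a later set of mitotic genes is driven through CHR and CCAAT promoter elements, while RB family proteins and the DREAM complex hold both sets down in resting cells. In the integrated stress response, kinases that sense amino acid shortage or misfolded protein in the endoplasmic reticulum (ER) phosphorylate the initiation factor eIF2alpha, most translation slows, and the transcription factor ATF4 is made and turns on amino acid transport and synthesis. The unfolded protein response of the ER adds the sensors IRE1 and ATF6, which raise ER chaperones through XBP1 and cleaved ATF6.

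The cells were checked against markers. The 7 listed epithelial markers were all expressed, with EPCAM, KRT8, KRT18 and KRT19 between 10.9 and 13.3 on every control array. Of 13 listed proximal tubule markers, 10 had a probe set of their own and only DPP4, a brush border peptidase, was above 4, at 10.6 to 11.6. LRP2 and CUBN, the endocytic receptors of the proximal tubule, and the transporters SLC34A1, SLC5A2, SLC22A6 and SLC22A8 stayed below 4 on all 6 arrays. The leukocyte markers PTPRC, CD3E, CD14 and ITGAM were also below 4. Of podocyte markers, PODXL and SYNPO were above 4 on all 6 arrays, at 5.62 to 6.95, while NPHS1 and WT1 were below 4. PECAM1 of endothelium (4.38 to 4.75) and AQP2 of the collecting duct (4.23 to 4.34) were a little above 4. The endothelial CDH5, VWF, KDR, TIE1 and TEK and the distal SLC12A1, SLC12A3, CALB1 and ATP6V1B1 were below 4. Of 8 listed fibroblast and pericyte markers, DCN, LUM, COL1A1, ACTA2 and RGS5 were above 4 on all 6 arrays, at 6.34 to 10.7, while PDGFRA, PDGFRB and COL1A2 were below 4.

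The 3 arrays at 48 h did not lie equally far from 12 h. Across tested genes the correlation between arrays was 0.992 to 0.994 among the 12 h arrays and 0.966 to 0.986 among the 48 h arrays. Against the 12 h arrays it was 0.925 to 0.932 for 48 h replicate 1, 0.944 to 0.952 for replicate 2 and 0.966 to 0.971 for replicate 3. Among the genes called, replicate 3 was the 48 h array nearest to 12 h for 61.3%, and its change was 82.9% of the mean change (median over called genes), against 112% in replicate 1 and 105% in replicate 2. The median standard deviation of a gene was 0.12 at 12 h and 0.21 at 48 h. Every call was refitted with each of the 6 control arrays left out in turn. Where 6 counts follow each other below, they come from these fits, in the order 12 h replicates 1 to 3 and 48 h replicates 1 to 3 left out.

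At the threshold 2749 of the 10650 genes differed (25.8%), of which 1316 were higher (12.4%) and 1433 lower (13.5%) at 48 h. Of these, 522 were at least 2-fold higher (4.90% of tested genes) and 413 at least 2-fold lower (3.88%). Over all tested genes the median difference was 0.01, and 51.3% of genes were above 0. The 3 and 3 arrays did not overlap for 5319 genes (49.9%), including 2738 of the 2749 called. The count of calls was 1554, 1476 and 1284 without 12 h replicates 1, 2 and 3, and 1408, 1421 and 3210 without 48 h replicates 1, 2 and 3. The count at 2-fold or more was 639, 585 and 508 in the first 3 of these fits and 502, 542 and 1355 in the others. Of the 10650 genes, 783, 659, 655, 685, 708 and 1586 were called higher in these 6 fits. Called lower were 771, 817, 629, 723, 713 and 1624. Counts of list members with 1 array left out are to be read beside these counts, not beside the shares of the main fit.

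**Figure D1:**
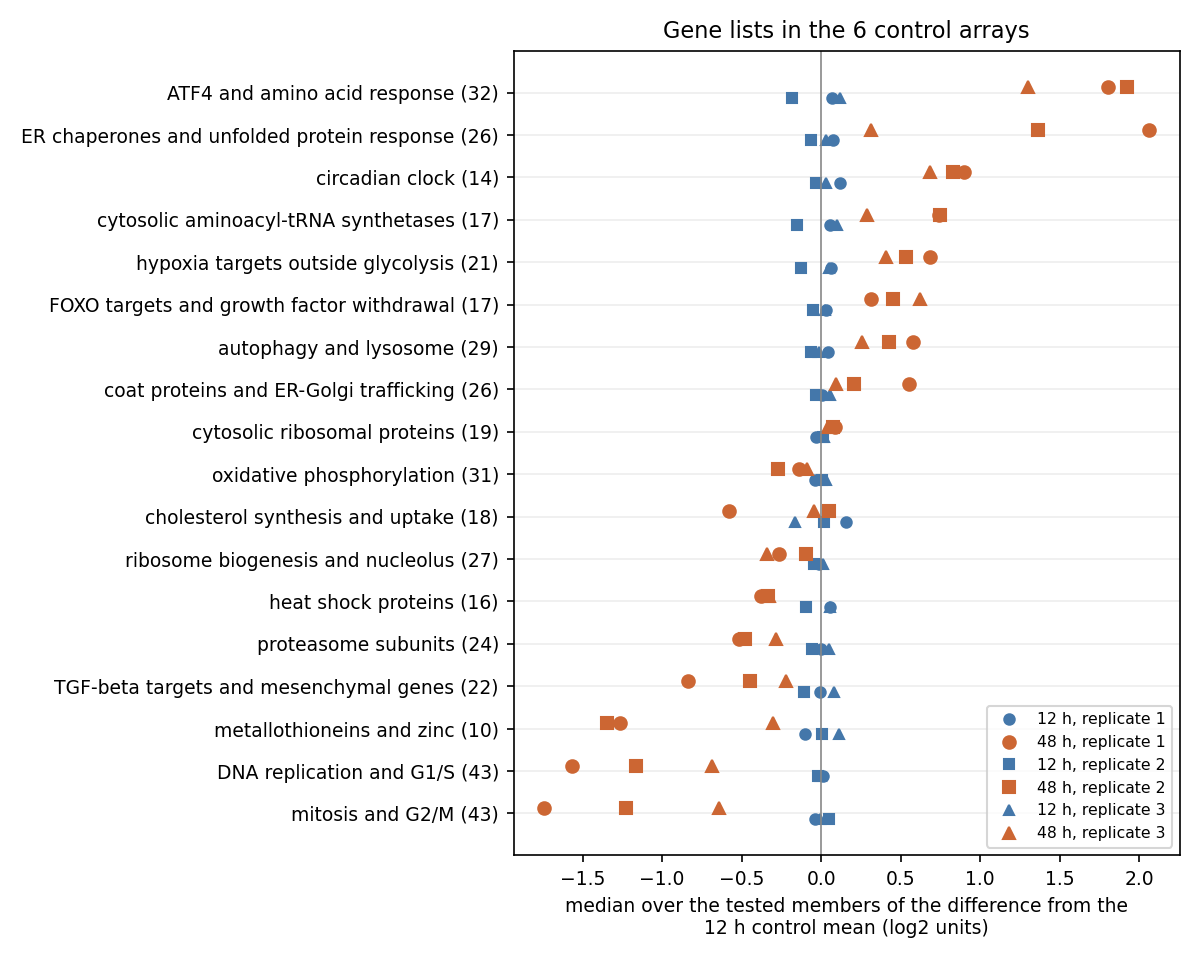
For 18 gene lists (number of tested members in brackets), each point is 1 control array and gives the median over members of the difference from the 12 h control mean, in log2 units. The 48 h arrays (orange) spread widely for mitosis, DNA replication and ER chaperones, and lie closer together for heat shock proteins and the circadian clock.

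Genes of mitosis were lower at 48 h as a group. All 43 tested members had differences below 0 and 32 passed the test, beside the background of 13.5% of genes called lower. The median difference was -1.19, against 0.01 over all genes, and the arrays of all 43 members did not overlap, beside 24.9% of all genes that were lower without overlap. By array the median member stood at -1.74, -1.23 and -0.64 in 48 h replicates 1, 2 and 3 relative to the 12 h mean. The count of members called lower was 7, 4 and 4 without 12 h replicates 1, 2 and 3, and 2, 3 and 38 without 48 h replicates 1, 2 and 3. Without 48 h replicate 1, 723 of all 10650 genes were called lower, so the share of mitosis members was not above that of all genes.

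CDC20, which activates the anaphase-promoting complex, read 11.36, 11.47 and 11.75 at 12 h against 10.12, 10.36 and 10.68 at 48 h (probe set 202870_s_at). All 3 arrays at 48 h were below the lowest 12 h array, and the gene fell by 1.14 ± 0.22 (adjusted p = 0.00664). CENPE, a kinetochore motor, read 9.02, 8.91 and 9.03 at 12 h against 6.88, 7.35 and 8.08 at 48 h, with 48 h replicate 3 nearest to 12 h, and fell by 1.55 ± 0.36 (adjusted p = 0.0130). FOXM1, the transcription factor of the late cell cycle, fell by 1.51 ± 0.36 (adjusted p = 0.0153). BUB1, a checkpoint kinase, fell by 0.89 ± 0.21 (adjusted p = 0.0138). CCNB1, the cyclin that drives entry into mitosis, read 12.36, 12.50 and 12.47 at 12 h against 10.72, 11.28 and 11.79 at 48 h and fell by 1.18 ± 0.29 (adjusted p = 0.0173). MKI67, the proliferation antigen Ki-67, read 11.29, 11.13 and 10.94 at 12 h against 9.14, 9.69 and 10.47 at 48 h. Its 48 h replicate 3 lay just below the lowest 12 h array and replicate 1 far below it, and the gene fell by 1.35 ± 0.41 (adjusted p = 0.0349). CDC20 and CENPE stayed past the threshold in each of the 6 fits that left out 1 control array. MKI67 lost its call when any 1 control array other than 48 h replicate 3 was left out (adjusted p up to 0.124). CCNB1 lost its call without 12 h replicate 2, 12 h replicate 3, 48 h replicate 1 or 48 h replicate 2 (adjusted p up to 0.0603). BUB1 lost its call without 48 h replicate 1 or 48 h replicate 2 (adjusted p up to 0.0519). FOXM1 lost its call without 48 h replicate 1 (adjusted p up to 0.0575). MKI67 was also not called without the filter on low values (adjusted p = 0.0885). The difference over the mean of all probe sets was -0.38 for BUB1 and -2.06 for MKI67.

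DNA replication and G1/S genes were also mostly lower. Of 43 tested members, 42 had differences below 0, 16 passed the test downward (37.2%, beside 13.5% of all genes) and 0 upward, with a median of -1.12. By 48 h array the median was -1.57, -1.16 and -0.69, and the count called lower was 4, 4 and 5 without 12 h replicates 1, 2 and 3, and 3, 4 and 20 without 48 h replicates 1, 2 and 3. Without 48 h replicate 1 the share of members called lower was near that of all genes (723 of 10650). CCNE1 and CCNE2 encode the E-type cyclins that start S phase. CCNE1 read 8.05, 7.62 and 7.75 at 12 h against 5.68, 5.53 and 5.63 at 48 h, with 3 close values in each group, and fell by 2.19 ± 0.50 (adjusted p = 0.0126). CCNE2 read 9.45, 9.56 and 9.44 at 12 h against 6.57, 6.65 and 7.22 at 48 h and fell by 2.67 ± 0.73 (adjusted p = 0.0257). CDC25A, the phosphatase that activates CDK2, read 8.16, 8.27 and 8.11 at 12 h against 6.10, 5.97 and 6.13 at 48 h and fell by 2.11 ± 0.43 (adjusted p = 0.00814).

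ORC1, part of the complex that marks replication origins, and MCM10, which acts in activating the loaded helicase, had the largest falls of the listed replication genes. MCM10 read 8.70, 8.65 and 8.66 at 12 h against 4.63, 5.84 and 6.04 at 48 h (probe set 220651_s_at) and fell by 3.16 ± 0.79 (adjusted p = 0.0181). ORC1 read 7.81, 7.85 and 8.06 at 12 h against 3.58, 4.84 and 6.20 at 48 h (probe set 205085_at), with 48 h replicate 1 below 4 and the other 48 h arrays between it and 12 h, and fell by 3.03 ± 0.90 (adjusted p = 0.0340). FEN1, the flap endonuclease of lagging-strand synthesis, fell by 1.47 ± 0.30 (adjusted p = 0.00810). GINS1, a subunit of the replicative helicase, fell by 1.94 ± 0.46 (adjusted p = 0.0154). SKP2, the F-box protein that marks the CDK inhibitor p27 for degradation, read 10.02, 10.13 and 10.13 at 12 h against 7.31, 6.68 and 8.05 at 48 h, all 48 h arrays below all 12 h arrays, and fell by 2.75 ± 0.52 (adjusted p = 0.00607). CCNE1, CDC25A, FEN1 and SKP2 stayed past the threshold in each of the 6 fits that left out 1 control array. CCNE2 and ORC1 lost their calls when any 1 control array other than 48 h replicate 3 was left out (adjusted p up to 0.121). MCM10 lost its call without 12 h replicate 1, 12 h replicate 2, 12 h replicate 3 or 48 h replicate 1 (adjusted p up to 0.0689). GINS1 lost its call without 12 h replicate 2, 48 h replicate 1 or 48 h replicate 2 (adjusted p up to 0.0590). Calls were lost for CCNE2, MCM10 and ORC1 without the filter on low values (adjusted p = 0.0519 to 0.0901). As the mean of all probe sets, the difference was -1.10 for CCNE1.

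Promoters of these genes were read from the RefSeq promoter table (GRCh38.p14, a window of 300 bases that ends 50 bases past the start of the gene). The 6 letters TTTGAA of the CHR element, searched on both strands, occurred in 25 of the 36 mitosis promoters in the table (69.4%), beside 9.45% of the 8805 tested genes with a promoter and 15.4% of all 27305 promoters. CCAAT occurred in 28 of the 36 (77.8%), beside 37.2% and 35.7%. Among 39 replication promoters, TTTGGCGC occurred in 9 (23.1%, beside 1.04% of tested genes and 0.659% of all promoters), TTTCCCGC in 10 (25.6%, beside 2.83% and 1.66%) and TTTGGCGG in 6 (15.4%, beside 1.15% and 0.681%). These are letters that E2F proteins can bind, and the first and last share 7 of them. The lists were built from genes known to be regulated in the cell cycle, so a match describes the list and no binding was measured. Shown here, 5′ to 3′, are the 2 called members with the largest falls among those with CHR letters and among those with E2F-type letters, with the matched letters in capitals. SPC25, a kinetochore subunit, differed by -2.26 and PLK1, the polo-like kinase of mitosis, by -2.04. Both lost their calls when any 1 control array other than 48 h replicate 3 was left out (adjusted p up to 0.119). Their windows are chr2:168890381-168890680, minus strand, and chr16:23678639-23678938, plus strand. Those of MCM10 and CDC25A are chr10:13161308-13161607, plus strand, and chr3:48188368-48188667, minus strand.
SPC25: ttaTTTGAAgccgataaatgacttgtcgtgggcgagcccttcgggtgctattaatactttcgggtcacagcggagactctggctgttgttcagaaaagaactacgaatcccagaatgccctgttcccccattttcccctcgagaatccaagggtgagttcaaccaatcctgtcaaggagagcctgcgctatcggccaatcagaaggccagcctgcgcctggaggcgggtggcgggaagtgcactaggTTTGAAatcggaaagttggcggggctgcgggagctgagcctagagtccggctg
PLK1: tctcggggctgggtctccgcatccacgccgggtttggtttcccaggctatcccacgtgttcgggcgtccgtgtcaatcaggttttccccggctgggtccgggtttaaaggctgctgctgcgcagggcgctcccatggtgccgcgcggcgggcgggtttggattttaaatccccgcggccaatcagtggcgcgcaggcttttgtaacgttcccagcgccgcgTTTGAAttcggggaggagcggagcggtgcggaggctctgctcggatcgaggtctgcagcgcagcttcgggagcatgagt
MCM10: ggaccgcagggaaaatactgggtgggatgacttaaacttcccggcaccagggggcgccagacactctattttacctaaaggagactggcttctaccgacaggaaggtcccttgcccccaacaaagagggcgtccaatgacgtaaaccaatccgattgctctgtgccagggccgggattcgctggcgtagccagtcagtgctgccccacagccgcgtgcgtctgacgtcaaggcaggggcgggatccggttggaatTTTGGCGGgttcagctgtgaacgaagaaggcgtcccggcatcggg
CDC25A: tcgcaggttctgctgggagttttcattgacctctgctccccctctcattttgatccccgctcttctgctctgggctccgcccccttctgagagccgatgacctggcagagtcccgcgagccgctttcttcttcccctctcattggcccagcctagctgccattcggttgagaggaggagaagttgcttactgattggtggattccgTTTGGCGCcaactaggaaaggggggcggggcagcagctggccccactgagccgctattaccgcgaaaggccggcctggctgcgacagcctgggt

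Regulators of G1 changed in both directions. CCND1, cyclin D1, read 9.36, 9.69 and 9.52 at 12 h against 6.56, 6.89 and 8.27 at 48 h and fell by 2.28 ± 0.59 (adjusted p = 0.0208). Its 48 h replicate 3 stood above the other 48 h arrays and below all 12 h arrays. CCND3 fell by 1.17 ± 0.27 (adjusted p = 0.0126) and CDK6, a partner kinase of the D cyclins, fell by 1.11 ± 0.24 (adjusted p = 0.00990), while CDK4, the other partner, rose by 0.44 ± 0.10 (adjusted p = 0.0150). Of 6 tested inhibitors of cyclin-dependent kinases, 3 rose and the other 3, all of the INK4 family, did not pass. CDKN1C, which encodes p57, read 8.36, 8.48 and 7.95 at 12 h against 9.43, 9.07 and 9.40 at 48 h and rose by 1.04 ± 0.17 (adjusted p = 0.00358). CDKN1A, which encodes p21, read 10.75, 10.28 and 9.87 at 12 h against 11.88, 11.49 and 11.15 at 48 h and rose by 1.20 ± 0.36 (adjusted p = 0.0343). CDKN1B, which encodes p27, rose by 0.55 ± 0.14 (adjusted p = 0.0208), and RBL2, which encodes the RB relative p130 of the DREAM complex, rose by 0.48 ± 0.12 (adjusted p = 0.0197). In the whole list 5 of 15 members rose (33.3%, beside 12.4% of all genes, and 3, 3, 1, 1, 4 and 5 with 1 array left out) and 3 fell (20%, beside 13.5%). The median was -0.20, or 0.09 over the members above 6 on at least 3 arrays. CCND3, CDK6 and CDKN1C stayed past the threshold in each of the 6 fits that left out 1 control array. CCND1 lost its call when any 1 control array other than 48 h replicate 3 was left out (adjusted p up to 0.0774). CDKN1A lost its call without 12 h replicate 2, 12 h replicate 3, 48 h replicate 1 or 48 h replicate 2 (adjusted p up to 0.120). CDK4 lost its call without 12 h replicate 2, 12 h replicate 3 or 48 h replicate 1 (adjusted p up to 0.0560). CDKN1B and RBL2 lost their calls without 12 h replicate 1, 12 h replicate 3 or 48 h replicate 1 (adjusted p up to 0.0750). Not called in other fits were CCND1 and CDKN1A without the filter on low values (adjusted p = 0.0578 to 0.0860). Over all probe sets the mean difference was -0.58 for CCND3.

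Targets of p53 moved in both directions. Of 22 tested members 6 rose (27.3%, beside 12.4% of all genes, and 6, 4, 4, 4, 5 and 6 with 1 array left out). In the other direction 2 fell (9.09%, beside 13.5%), and the median was 0.24. GDF15, a stress-induced secreted protein, read 11.05, 10.34 and 10.39 at 12 h against 13.19, 13.12 and 12.71 at 48 h and rose by 2.41 ± 0.33 (adjusted p = 0.00185). GADD45A, a growth arrest gene also induced through ATF4, read 9.85, 9.51 and 10.20 at 12 h against 11.80, 12.07 and 12.36 at 48 h and rose by 2.22 ± 0.41 (adjusted p = 0.00580). ZMAT3 rose by 1.07 ± 0.18 (adjusted p = 0.00389) and TNFRSF10B, a death receptor, rose by 0.70 ± 0.15 (adjusted p = 0.0115). SESN2, a sestrin that is also a target of ATF4, rose by 2.25 ± 0.58 (adjusted p = 0.0202). TP53I3, a quinone oxidoreductase named for its induction by p53, fell by 1.06 ± 0.12 (adjusted p = 0.00108). TRIAP1, a small p53-regulated survival protein, fell by 0.46 ± 0.10 (adjusted p = 0.0111). GDF15, GADD45A, ZMAT3, TNFRSF10B, TP53I3 and TRIAP1 stayed past the threshold in each of the 6 fits that left out 1 control array. SESN2 lost its call without 12 h replicate 2, 12 h replicate 3 or 48 h replicate 1 (adjusted p up to 0.0636). Averaged over all probe sets of the gene, the difference was 0.90 for GDF15. Among 6 tested replication-dependent histone genes, which share near-identical sequence so that probe sets may not separate them, H2BC9 fell by 1.39 ± 0.24 (adjusted p = 0.00446) and H2AC6 rose by 3.15 ± 0.92 (adjusted p = 0.0321). Each was 16.7% of the list, beside 13.5% of all genes called lower and 12.4% called higher. H2BC9 stayed past the threshold in each of the 6 fits that left out 1 control array. H2AC6 lost its call when any 1 control array other than 48 h replicate 3 was left out (adjusted p up to 0.114). H2AC6 was also not called without the filter on low values (adjusted p = 0.0856).

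The ATF4 and amino acid response held the largest rises. Of 32 tested members 31 had differences above 0 and 21 passed the test upward, beside the background of 12.4%, and 0 passed downward. The median difference was 1.60, and by 48 h array it was 1.80, 1.92 and 1.30. The groups did not overlap for 31 of the 32, beside 25.0% of all genes that were higher without overlap. The count called was 14, 12 and 12 without 12 h replicates 1, 2 and 3, and 14, 13 and 24 without 48 h replicates 1, 2 and 3. At 12 h the median member stood at 0.07, -0.19 and 0.11 relative to the 12 h mean in replicates 1, 2 and 3, so replicate 2 was the lowest 12 h array for this list.

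INHBE, a stress-induced subunit of the inhibin and activin family, showed the largest difference of any called gene. It read 5.56, 2.86 and 4.31 at 12 h against 12.19, 11.71 and 11.25 at 48 h (probe set 210587_at), with 12 h replicate 2 below 4 and all 48 h arrays far above all 12 h arrays, and rose by 7.47 ± 1.48 (adjusted p = 0.00750). ATF3, a transcription factor induced by ATF4, read 6.96, 5.56 and 7.01 at 12 h against 11.75, 12.19 and 11.65 at 48 h (probe set 202672_s_at) and rose by 5.35 ± 0.83 (adjusted p = 0.00260). DDIT3, which encodes CHOP, the stress factor downstream of ATF4, read 8.53, 8.28 and 8.52 at 12 h against 13.82, 13.40 and 12.52 at 48 h (probe set 209383_at). Its 3 values at 12 h lay close together and every 48 h value was far above them, a rise of 4.81 ± 0.85 (28-fold, adjusted p = 0.00458). ATF4 itself read 12.14, 11.56 and 12.21 at 12 h against 13.02, 13.13 and 13.18 at 48 h and rose by 1.14 ± 0.26 (adjusted p = 0.0117). CEBPB, a partner of ATF4 on DNA, rose by 1.60 ± 0.36 (adjusted p = 0.0119). TRIB3, a pseudokinase induced by ATF4 and CHOP, rose by 1.91 ± 0.45 (adjusted p = 0.0142). INHBE, ATF3, DDIT3, ATF4 and CEBPB stayed past the threshold in each of the 6 fits that left out 1 control array. TRIB3 lost its call without 12 h replicate 3 or 48 h replicate 2 (adjusted p up to 0.0519).

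Amino acid enzymes and transporters rose with them. CTH, which makes cysteine from cystathionine, read 7.64, 6.87 and 7.24 at 12 h against 12.02, 11.90 and 11.16 at 48 h (probe set 217127_at) and rose by 4.44 ± 0.92 (adjusted p = 0.00866). SLC7A11, the cystine transporter, read 7.96, 6.55 and 7.98 at 12 h against 11.32, 11.56 and 11.27 at 48 h (probe set 217678_at), again lowest in 12 h replicate 2, and rose by 3.89 ± 0.89 (adjusted p = 0.0127). CHAC1, which breaks down glutathione, read 5.45, 3.55 and 4.91 at 12 h against 7.89, 7.81 and 8.97 at 48 h (probe set 219270_at) and rose by 3.59 ± 0.90 (adjusted p = 0.0179). Here 48 h replicate 3 was the highest of the 48 h arrays. ASNS, asparagine synthetase, read 9.33, 8.43 and 9.52 at 12 h against 12.23, 12.40 and 11.56 at 48 h and rose by 2.97 ± 0.92 (adjusted p = 0.0394). PSPH, the last enzyme of serine synthesis, rose by 1.61 ± 0.37 (adjusted p = 0.0128), and MTHFD2, a mitochondrial folate enzyme, rose by 1.22 ± 0.27 (adjusted p = 0.0115). SLC38A2, a neutral amino acid transporter, rose by 0.70 ± 0.13 (adjusted p = 0.00542). STC2, a secreted glycoprotein, read 6.51, 6.02 and 6.41 at 12 h against 8.62, 9.21 and 9.43 at 48 h, with 48 h replicate 3 the highest, and rose by 2.77 ± 0.56 (adjusted p = 0.00803). CTH, SLC7A11, PSPH, MTHFD2, SLC38A2 and STC2 stayed past the threshold in each of the 6 fits that left out 1 control array. ASNS lost its call when any 1 control array other than 48 h replicate 3 was left out (adjusted p up to 0.118). CHAC1 lost its call without 12 h replicate 2 or 12 h replicate 3 (adjusted p up to 0.0669). The call was also lost for ASNS and CHAC1 without the filter on low values (adjusted p = 0.0513 to 0.103). The difference over the mean of all probe sets was 1.49 for ASNS and 1.05 for PSPH.

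Cytosolic aminoacyl-tRNA synthetases, several of which are ATF4 targets, had a median of 0.57 with 13 of 17 above 0, 3 called higher (17.6%, beside 12.4% of all genes) and 1 lower. AARS1, the alanyl enzyme, read 9.35, 8.79 and 9.29 at 12 h against 11.79, 11.39 and 10.52 at 48 h and rose by 2.09 ± 0.61 (adjusted p = 0.0319). SARS1, the seryl enzyme, rose by 1.57 ± 0.44 (adjusted p = 0.0285), and CARS1, the cysteinyl enzyme, rose by 1.51 ± 0.48 (adjusted p = 0.0414). HARS1, the histidyl enzyme, fell by 0.68 ± 0.13 (adjusted p = 0.00634). HARS1 stayed past the threshold in each of the 6 fits that left out 1 control array. AARS1, SARS1 and CARS1 lost their calls when any 1 control array other than 48 h replicate 3 was left out (adjusted p up to 0.116). Also not called were AARS1, CARS1 and SARS1 without the filter on low values (adjusted p = 0.0751 to 0.105) and CARS1 with a random block (adjusted p = 0.0516). Without 48 h replicate 3 the count of members called higher was 6, and it was 0 in each of the other 5 fits with a control array left out.

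ER chaperones and unfolded protein response genes were higher at 48 h, by amounts that differed between the 48 h arrays. All 26 tested members had differences above 0, 7 passed upward (26.9%, beside the background of 12.4%) and 0 downward, 14 had groups that did not overlap, beside 25.0% of all genes, and the median was 1.25. By array the median was 2.06, 1.36 and 0.31 in 48 h replicates 1, 2 and 3. The count called was 3, 2 and 2 without 12 h replicates 1, 2 and 3, and 2, 2 and 19 without 48 h replicates 1, 2 and 3. Without 48 h replicate 1 the share of members called higher was near that of all genes (685 of 10650). HSPA5, which encodes BiP, the main Hsp70 chaperone of the ER, read 13.999, 13.16 and 13.67 at 12 h against 15.61, 15.49 and 14.42 at 48 h. In 48 h replicate 3 it was a little above the highest 12 h array and in the other 48 h arrays well above it, and the gene rose by 1.57 ± 0.51 (adjusted p = 0.0455). DNAJB9, a BiP co-chaperone made through IRE1 and XBP1, read 8.87, 8.29 and 8.54 at 12 h against 12.70, 12.51 and 9.89 at 48 h, with 48 h replicate 3 far below the other 48 h arrays, and rose by 3.13 ± 0.86 (adjusted p = 0.0254). HERPUD1, a scaffold of ER-associated degradation, read 10.52, 9.71 and 10.20 at 12 h against 13.83, 13.69 and 11.97 at 48 h and rose by 3.02 ± 0.78 (adjusted p = 0.0207).

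The other called members of the ER list included the sensors ERN1 and ATF6 and the transcription factor XBP1. ERN1, which encodes IRE1, read 6.27, 6.24 and 5.74 at 12 h against 10.30, 10.45 and 9.29 at 48 h (probe set 227755_at) and rose by 3.93 ± 0.86 (adjusted p = 0.0111). XBP1, whose mRNA IRE1 splices, read 9.79, 9.38 and 9.63 at 12 h against 11.72, 11.88 and 11.19 at 48 h and rose by 1.99 ± 0.31 (adjusted p = 0.00270). ATF6, the cleaved sensor, rose by 0.88 ± 0.23 (adjusted p = 0.0225), and DNAJC10, an ER disulfide reductase, rose by 0.82 ± 0.25 (adjusted p = 0.0373). Every 48 h array was above every 12 h array for these 4 genes, as it was for HSPA5, DNAJB9 and HERPUD1. ERN1 and XBP1 stayed past the threshold in each of the 6 fits that left out 1 control array. HSPA5, DNAJB9, ATF6 and DNAJC10 lost their calls when any 1 control array other than 48 h replicate 3 was left out (adjusted p up to 0.142). HERPUD1 lost its call without 12 h replicate 2, 12 h replicate 3, 48 h replicate 1 or 48 h replicate 2 (adjusted p up to 0.0744). Calls were lost for ATF6, HERPUD1 and HSPA5 without the filter on low values (adjusted p = 0.0534 to 0.114). As means of all their probe sets, the differences were 1.91 for HERPUD1, 1.47 for ERN1 and 1.03 for XBP1. Coat proteins and ER-Golgi trafficking genes, some of which follow XBP1, had a median of 0.23 with 21 of 26 above 0 and 0 called in either direction by limma. Of these, SEC24D, a cargo adaptor of COPII coats, read 8.70, 8.62 and 8.61 at 12 h against 10.78, 10.35 and 9.03 at 48 h (difference 1.41 ± 0.54, adjusted p = 0.0753). Without 48 h replicate 3, 6 of the 26 were called higher, beside 1586 of all 10650 genes.

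Promoter letters were also counted for both stress lists, with motifs chosen after the values were seen. These lists too hold textbook members of the responses, so a match describes the list and no binding was measured. TGATGNAA, the letters of composite sites that C/EBP and ATF proteins can bind, occurred on either strand in 5 of 25 promoters of the ATF4 list (20.0%, beside 1.68% of tested genes and 3.67% of all promoters). The 5 were ATF3, CHAC1, ASNS, SLC3A2 and SLC7A1. The ER stress element, CCAAT followed by 9 bases of any kind and CCACG, occurred in 7 of 23 promoters of the ER list (30.4%, beside 0.159% and 0.0806%). These were HSPA5, HSP90B1, CALR, CANX, CRELD2, XBP1 and ERO1B. Only XBP1 and HSPA5 of them were called, and the others did not pass (limma adjusted p = 0.0516 to 0.219). CALR, CANX and CRELD2 also had overlapping groups. Sequences are shown 5′ to 3′ with the matched letters in capitals. For TGATGNAA they are the 2 called members with the largest rises, and for the ER stress element the only 2 called. The windows (GRCh38.p14) are chr1:212565157-212565456, plus strand, for ATF3 and chr15:40953221-40953520, plus strand, for CHAC1. Those of XBP1 and HSPA5 are chr22:28800520-28800819, minus strand, and chr9:125241294-125241593, minus strand.
ATF3: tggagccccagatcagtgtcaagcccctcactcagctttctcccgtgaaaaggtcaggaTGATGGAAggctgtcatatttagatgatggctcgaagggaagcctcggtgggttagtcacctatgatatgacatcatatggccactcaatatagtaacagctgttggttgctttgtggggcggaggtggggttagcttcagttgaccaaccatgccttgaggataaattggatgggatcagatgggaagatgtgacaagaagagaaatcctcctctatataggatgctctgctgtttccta
CHAC1: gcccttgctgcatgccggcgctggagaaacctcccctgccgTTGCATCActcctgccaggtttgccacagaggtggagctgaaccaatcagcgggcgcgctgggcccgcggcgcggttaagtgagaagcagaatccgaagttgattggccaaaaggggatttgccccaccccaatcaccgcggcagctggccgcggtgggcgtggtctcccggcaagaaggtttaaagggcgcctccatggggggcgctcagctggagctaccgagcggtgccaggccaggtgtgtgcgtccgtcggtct
XBP1: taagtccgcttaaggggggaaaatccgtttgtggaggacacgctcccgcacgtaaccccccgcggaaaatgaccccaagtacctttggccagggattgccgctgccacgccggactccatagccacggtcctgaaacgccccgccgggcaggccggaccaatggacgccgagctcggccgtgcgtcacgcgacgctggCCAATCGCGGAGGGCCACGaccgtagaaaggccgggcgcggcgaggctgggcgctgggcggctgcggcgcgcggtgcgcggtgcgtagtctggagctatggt
HSPA5: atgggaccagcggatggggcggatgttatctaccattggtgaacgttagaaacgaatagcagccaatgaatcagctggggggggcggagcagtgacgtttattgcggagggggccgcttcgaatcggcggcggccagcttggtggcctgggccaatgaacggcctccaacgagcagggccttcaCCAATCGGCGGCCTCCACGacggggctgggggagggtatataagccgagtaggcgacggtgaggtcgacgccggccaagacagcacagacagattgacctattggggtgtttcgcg

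**Figure D2:**
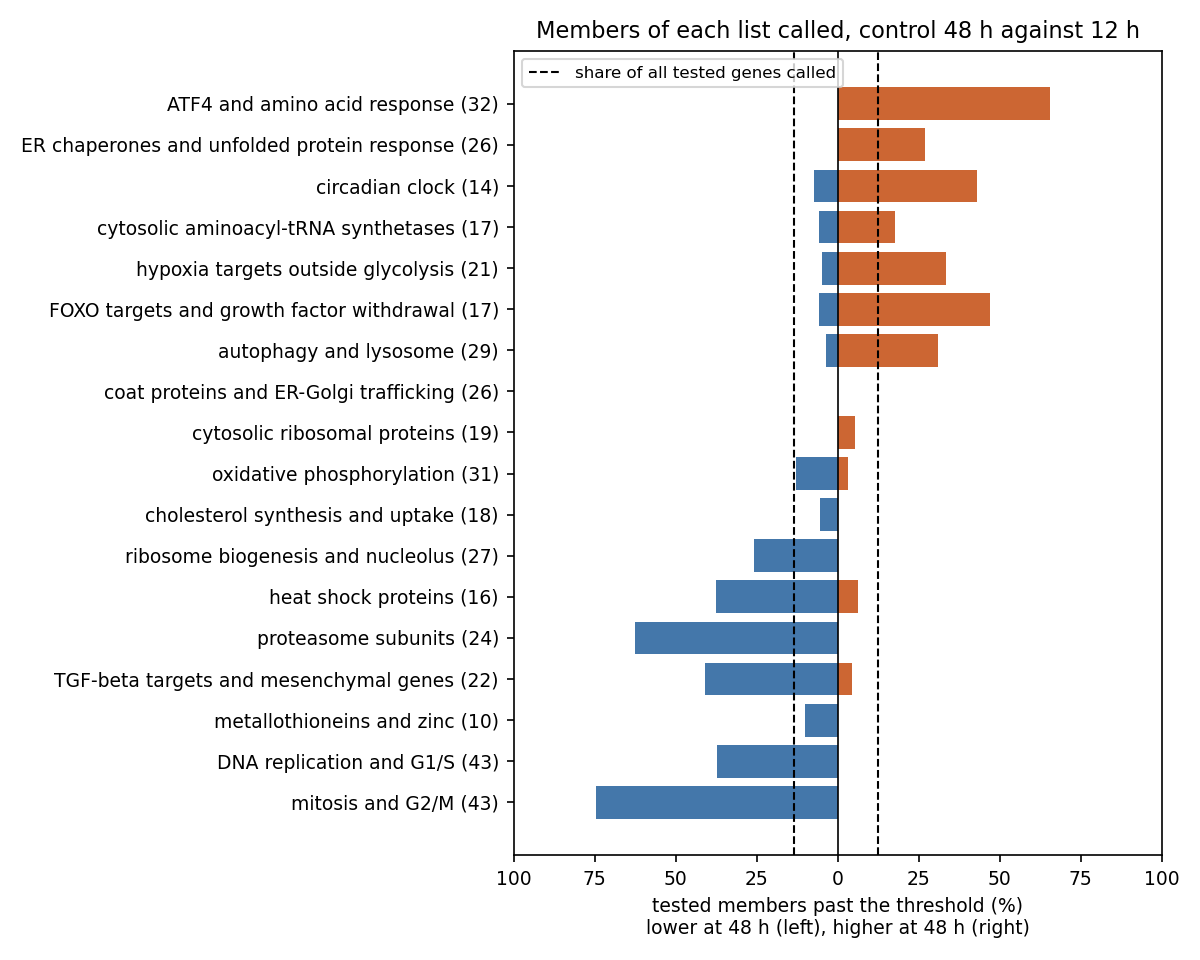
Bars give the percentage of tested members of each list (number in brackets) past the threshold, higher at 48 h to the right and lower to the left. The dashed lines mark the shares over all tested genes, 12.4% higher and 13.5% lower. The ATF4 list (65.6%) extends farthest to the right, and the mitosis (74.4%) and proteasome (62.5%) lists farthest to the left. Other lists also pass the lines, such as FOXO targets (47.1%) and the circadian clock (42.9%) to the right. To the left these include TGF-beta targets (40.9%) and heat shock proteins (37.5%).

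TXNIP, which encodes thioredoxin-interacting protein, an inhibitor of glucose uptake whose transcription follows glucose through MondoA, was lower at 48 h. It read 8.27, 8.58 and 9.15 at 12 h against 3.44, 3.19 and 3.90 at 48 h (probe set 201010_s_at), so it was among the well-expressed genes at 12 h and below 4 on all 3 arrays at 48 h, and it fell by 5.16 ± 1.12 (adjusted p = 0.0107). Values below 4 lie near background, and with the 48 h arrays set to 4 the fall was 4.67. MLXIP, which encodes MondoA, fell by 0.90 ± 0.30 (adjusted p = 0.0496). The arrestin-domain relatives ARRDC1 (difference 0.18 ± 0.10, adjusted p = 0.183) and ARRDC3 (0.42 ± 0.24, adjusted p = 0.217) did not pass, and their groups overlapped. The E-box letters CACGTG occurred in 1 of the 6 promoters of the tested members of this list (16.7%, beside 10.8% of tested genes and 7.43% of all promoters). The match was in MLX, which did not pass (difference 0.43, limma adjusted p = 0.238), and not in the window of TXNIP. Only these exact letters were searched and no binding was measured. The search therefore cannot show whether TXNIP has a site for MondoA. TXNIP stayed past the threshold in each of the 6 fits that left out 1 control array. MLXIP lost its call when any 1 of the 6 control arrays was left out (adjusted p up to 0.170). Not called in other fits were MLXIP with the arrays shifted to 1 median (adjusted p = 0.0511), MLXIP with the mean over all probe sets of a gene (adjusted p = 0.106), MLXIP without the filter on low values (adjusted p = 0.115) and MLXIP with a variance trend (adjusted p = 0.0505). Over all probe sets the mean difference was -0.43 for MLXIP.

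Targets of FOXO factors, which are active when growth factor signalling is low, included 8 of 17 called higher (47.1%, beside the background of 12.4%, and 5, 6, 4, 6, 6 and 7 with 1 array left out) and 1, TXNIP, called lower, with a median of 0.49. Here 48 h replicate 3 had the largest median (0.31, 0.45 and 0.62 in the 3 arrays). CCNG2, an atypical cyclin linked to arrest, read 10.73, 10.65 and 10.73 at 12 h against 11.52, 11.62 and 11.32 at 48 h and rose by 0.78 ± 0.10 (adjusted p = 0.00161). GABARAPL1, an autophagy protein, read 7.85, 7.74 and 7.77 at 12 h against 9.11, 8.85 and 8.99 at 48 h and rose by 1.20 ± 0.21 (adjusted p = 0.00431). FBXO32, the ubiquitin ligase atrogin-1, rose by 1.27 ± 0.29 (adjusted p = 0.0131), HBP1, a repressor of cell cycle genes, rose by 0.88 ± 0.19 (adjusted p = 0.0115), and CITED2, a transcriptional cofactor, rose by 0.92 ± 0.22 (adjusted p = 0.0142). CAT, catalase, rose by 0.67 ± 0.22 (adjusted p = 0.0479). CDKN1B and RBL2, described above, are the other 2. CCNG2, GABARAPL1 and HBP1 stayed past the threshold in each of the 6 fits that left out 1 control array. CAT lost its call when any 1 of the 6 control arrays was left out (adjusted p up to 0.153). FBXO32 lost its call without 12 h replicate 2 or 12 h replicate 3 (adjusted p up to 0.0544). CITED2 lost its call without 48 h replicate 2 (adjusted p up to 0.0504). Averaged over all probe sets of the gene, the difference was 0.40 for CCNG2, 0.31 for FBXO32 and 0.55 for CITED2. FBXO32 was not called with that mean (limma adjusted p = 0.0617).

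Glycolysis genes did not move together, with 3 of 19 called higher (3, 2, 1, 2, 2 and 3 with 1 array left out), 3 lower and a median of -0.23. Each count was 15.8% of the list, near the 12.4% higher and 13.5% lower of all genes. Both major glucose transporters rose. SLC2A3 read 8.72, 8.51 and 8.06 at 12 h against 9.88, 10.11 and 10.19 at 48 h and rose by 1.63 ± 0.28 (adjusted p = 0.00410), and SLC2A1 read 8.15, 7.77 and 7.95 at 12 h against 8.92, 8.88 and 8.88 at 48 h and rose by 0.94 ± 0.24 (adjusted p = 0.0193). ENO2, an enolase, rose by 0.71 ± 0.16 (adjusted p = 0.0132). PKM, pyruvate kinase, fell by 0.67 ± 0.15 (adjusted p = 0.0111), PGAM1 fell by 0.62 ± 0.19 (adjusted p = 0.0336) and PFKFB4 fell by 0.83 ± 0.27 (adjusted p = 0.0467), the last with overlapping groups. SLC2A3 and PKM stayed past the threshold in each of the 6 fits that left out 1 control array. PGAM1 lost its call when any 1 control array other than 48 h replicate 3 was left out (adjusted p up to 0.119). SLC2A1 lost its call without 12 h replicate 2, 12 h replicate 3, 48 h replicate 1 or 48 h replicate 2 (adjusted p up to 0.0679). PFKFB4 lost its call without 12 h replicate 1, 12 h replicate 2, 48 h replicate 1 or 48 h replicate 2 (adjusted p up to 0.154). ENO2 lost its call without 12 h replicate 3 (adjusted p up to 0.0547). The difference over the mean of all probe sets was 0.45 for SLC2A1. Hypoxia targets outside glycolysis had 7 of 21 called higher (33.3%, beside 12.4% of all genes, and 7, 3, 5, 3, 5 and 7 with 1 array left out) and 1 lower, with a median of 0.53. VEGFA, the endothelial growth factor, which ATF4 also induces, read 9.97, 9.86 and 9.89 at 12 h against 12.39, 12.31 and 11.77 at 48 h and rose by 2.25 ± 0.43 (adjusted p = 0.00659). ADM, adrenomedullin, read 7.10, 6.62 and 6.74 at 12 h against 8.40, 8.99 and 8.59 at 48 h and rose by 1.84 ± 0.28 (adjusted p = 0.00248). NDRG1 rose by 1.94 ± 0.51 (adjusted p = 0.0210), BNIP3L, a mitophagy receptor, rose by 0.54 ± 0.10 (adjusted p = 0.00546), and MXI1, a MYC antagonist, rose by 1.27 ± 0.31 (adjusted p = 0.0176). KDM3A, a histone demethylase, rose by 0.79 ± 0.20 (adjusted p = 0.0188), PDK1, which restrains pyruvate dehydrogenase, rose by 0.67 ± 0.17 (adjusted p = 0.0189), and EGLN1, the oxygen sensor PHD2, fell by 0.65 ± 0.15 (adjusted p = 0.0134). VEGFA, ADM and BNIP3L stayed past the threshold in each of the 6 fits that left out 1 control array. NDRG1 and KDM3A lost their calls without 12 h replicate 2, 12 h replicate 3, 48 h replicate 1 or 48 h replicate 2 (adjusted p up to 0.0783). MXI1 and PDK1 lost their calls without 12 h replicate 2 or 48 h replicate 1 (adjusted p up to 0.0686). EGLN1 lost its call without 12 h replicate 3 (adjusted p up to 0.0534). As means of all their probe sets, the differences were 0.40 for KDM3A and 0.30 for PDK1, and PDK1 was then not called (limma adjusted p = 0.105).

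Proteasome subunits were lower as a group by a small amount. All 24 tested members had differences below 0, 15 passed (62.5%, beside 13.5% of all genes called lower), and the median was -0.38, with -0.51, -0.48 and -0.28 in the 3 arrays at 48 h. The count called was 8, 7 and 6 without 12 h replicates 1, 2 and 3, and 5, 6 and 15 without 48 h replicates 1, 2 and 3. PSMC1, an ATPase of the regulatory particle, read 12.26, 12.24 and 12.27 at 12 h against 10.81, 11.12 and 11.65 at 48 h and fell by 1.07 ± 0.20 (adjusted p = 0.00621). PSMC3 fell by 0.85 ± 0.14 (adjusted p = 0.00318) and PSMD12 fell by 0.85 ± 0.15 (adjusted p = 0.00401), both in the regulatory particle, and PSMA7, a subunit of the core, fell by 0.50 ± 0.09 (adjusted p = 0.00511). PSMC1, PSMC3, PSMD12 and PSMA7 stayed past the threshold in each of the 6 fits that left out 1 control array.

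Heat shock proteins of the cytosol, listed together with the mitochondrial HSPD1 and HSPE1, fell in 6 of 16 (37.5%, beside 13.5% of all genes) and rose in 1. The median was -0.35, with -0.38, -0.33 and -0.33 in the 3 arrays at 48 h, so 48 h replicate 3 did not stand apart here. DNAJA1, an Hsp40 co-chaperone, read 13.18, 13.12 and 13.07 at 12 h against 12.17, 12.003 and 11.92 at 48 h and fell by 1.09 ± 0.11 (adjusted p = 0.000977). DNAJB1, another Hsp40, fell by 1.02 ± 0.15 (adjusted p = 0.00232), and BAG3, a nucleotide exchange factor of Hsp70, fell by 0.95 ± 0.14 (adjusted p = 0.00229). HSP90AA1, the inducible Hsp90, fell by 0.81 ± 0.12 (adjusted p = 0.00230). HSPE1, the mitochondrial co-chaperonin, fell by 0.99 ± 0.21 (adjusted p = 0.00903). HSP90AB1 fell by 0.44 ± 0.10 (adjusted p = 0.0138), and CRYAB, a small heat shock protein, rose by 0.54 ± 0.12 (adjusted p = 0.0129). DNAJA1, DNAJB1, BAG3, HSP90AA1, HSPE1 and CRYAB stayed past the threshold in each of the 6 fits that left out 1 control array. HSP90AB1 lost its call without 48 h replicate 1 (adjusted p up to 0.0523).

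Autophagy and lysosome genes were called higher in 9 of 29 (31.0%, beside 12.4% of all genes, and 8, 6, 6, 5, 6 and 13 with 1 array left out) and lower in 1, with a median of 0.42. MAP1LC3B, which encodes the autophagosome protein LC3B, read 11.53, 11.24 and 11.34 at 12 h against 12.84, 12.77 and 12.22 at 48 h and rose by 1.24 ± 0.24 (adjusted p = 0.00680). SQSTM1, which encodes the cargo receptor p62, rose by 0.89 ± 0.24 (adjusted p = 0.0237). The lysosomal hydrolases CTSD, HEXA and NEU1 read higher on every 48 h array than on every 12 h array: CTSD rose by 0.81 ± 0.16 (adjusted p = 0.00803), HEXA rose by 0.99 ± 0.20 (adjusted p = 0.00866) and NEU1 rose by 0.74 ± 0.17 (adjusted p = 0.0124). ATG9A, the autophagy lipid scramblase, fell by 0.64 ± 0.19 (adjusted p = 0.0374). MAP1LC3B, CTSD, HEXA and NEU1 stayed past the threshold in each of the 6 fits that left out 1 control array. ATG9A lost its call when any 1 control array other than 48 h replicate 1 was left out (adjusted p up to 0.127). SQSTM1 lost its call without 12 h replicate 2, 12 h replicate 3, 48 h replicate 1 or 48 h replicate 2 (adjusted p up to 0.0874). HEXA was also not called with the mean over all probe sets of a gene (adjusted p = 0.0760). Over all probe sets the mean difference was 0.39 for SQSTM1 and 0.27 for HEXA.

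Ribosomal protein and mitochondrial genes differed little. Cytosolic ribosomal protein genes had a median of 0.07 and no difference outside -0.03 to 0.29. Of 19, 1 was called (5.26%, beside 12.4% of all genes called higher), RPL3, which rose by 0.29 ± 0.08 (adjusted p = 0.0241). Ribosome biogenesis genes fell in 7 of 27 (25.9%, beside 13.5% of all genes, and 3, 2, 2, 3, 3 and 4 with 1 array left out) with 0 called higher and a median of -0.25. LYAR, a nucleolar growth regulator, read 11.18, 10.77 and 11.07 at 12 h against 9.80, 9.81 and 9.69 at 48 h and fell by 1.24 ± 0.11 (adjusted p = 0.000977), and NOLC1, a nucleolar phosphoprotein, fell by 0.59 ± 0.12 (adjusted p = 0.00690). NHP2 and FBL, core proteins of the box H/ACA and box C/D particles that modify ribosomal RNA, fell by 0.41 ± 0.12 and 0.47 ± 0.14. Of 31 oxidative phosphorylation genes 1 rose and 4 fell (12.9%, beside 13.5% of all genes, and 1, 0, 0, 1, 0 and 9 with 1 array left out), with a median of -0.16. NDUFB5, a complex I subunit, rose by 0.40 ± 0.08 (adjusted p = 0.00936), and ATP5MC1, a subunit of the ATP synthase ring, fell by 1.20 ± 0.30 (adjusted p = 0.0187). LYAR, NOLC1 and NDUFB5 stayed past the threshold in each of the 6 fits that left out 1 control array. FBL lost its call when any 1 of the 6 control arrays was left out (adjusted p up to 0.117). NHP2 lost its call when any 1 control array other than 48 h replicate 1 was left out (adjusted p up to 0.0953). RPL3 lost its call without 12 h replicate 1, 12 h replicate 3, 48 h replicate 1 or 48 h replicate 2 (adjusted p up to 0.0799). ATP5MC1 lost its call without 12 h replicate 2, 12 h replicate 3, 48 h replicate 1 or 48 h replicate 2 (adjusted p up to 0.0630). The call was also lost for RPL3 with the arrays shifted to 1 median (adjusted p = 0.0515), NHP2 with a random block (adjusted p = 0.0570) and NHP2 and RPL3 in a fit of the 6 control arrays alone (adjusted p = 0.0518 to 0.0554).

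Lipid genes showed few calls. In cholesterol synthesis and uptake 1 of 18 fell (5.56%, beside 13.5% of all genes) and 0 rose (beside 12.4%), with a median of -0.20. By 48 h array the median was -0.58, 0.05 and -0.05, so replicate 1 alone stood clearly below 0. EBP, a sterol isomerase, read 12.23, 12.40 and 12.24 at 12 h against 10.63, 11.11 and 11.57 at 48 h and fell by 1.18 ± 0.29 (adjusted p = 0.0171). HMGCS1, which makes HMG-CoA, read 11.75, 11.69 and 11.34 at 12 h against 9.61, 10.88 and 11.30 at 48 h, with 48 h replicate 3 close to 12 h (difference -0.996 ± 0.43, adjusted p = 0.108). ELOVL6, which elongates fatty acids, fell by 1.43 ± 0.43 (adjusted p = 0.0355) and was the 1 gene called among 10 of fatty acid synthesis (10%, beside 13.5% of all genes called lower). PLIN2, which coats lipid droplets, rose by 0.85 ± 0.21 (adjusted p = 0.0167). It was the 1 gene called among 15 of fatty acid oxidation and PPAR targets (6.67%, beside 12.4% of all genes called higher). ELOVL6 lost its call when any 1 control array other than 48 h replicate 3 was left out (adjusted p up to 0.126). EBP lost its call without 12 h replicate 2, 12 h replicate 3, 48 h replicate 1 or 48 h replicate 2 (adjusted p up to 0.0625). PLIN2 lost its call without 12 h replicate 2, 12 h replicate 3 or 48 h replicate 1 (adjusted p up to 0.0655). ELOVL6 was also not called without the filter on low values (adjusted p = 0.0905). Averaged over all probe sets of the gene, the difference was -0.70 for EBP and 0.46 for PLIN2.

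Antioxidant targets of NRF2 were called higher in 4 of 18 (22.2%, beside 12.4% of all genes, and 4, 2, 2, 2, 2 and 2 with 1 array left out), SLC7A11 among them. NFE2L2, which encodes NRF2, read 11.16, 10.91 and 11.002 at 12 h against 11.64, 12.25 and 11.94 at 48 h and rose by 0.92 ± 0.17 (adjusted p = 0.00511). GCLC, which starts glutathione synthesis, rose by 0.84 ± 0.27 (adjusted p = 0.0444). TKT, transketolase, rose by 0.35 ± 0.11 (adjusted p = 0.0439), but 1 of its 2 other probe sets past the filter had the opposite sign. NFE2L2 stayed past the threshold in each of the 6 fits that left out 1 control array. GCLC lost its call when any 1 of the 6 control arrays was left out (adjusted p up to 0.151). TKT lost its call when any 1 control array other than 12 h replicate 1 was left out (adjusted p up to 0.139). Also not called were TKT with the arrays shifted to 1 median (adjusted p = 0.0710), TKT with the mean over all probe sets of a gene (adjusted p = 0.634), GCLC without the filter on low values (adjusted p = 0.104), TKT with a replicate block (adjusted p = 0.0513), TKT in a fit of the 6 control arrays alone (adjusted p = 0.0791) and TKT in a fit of the 6 control arrays alone with a variance trend (adjusted p = 0.0554). The difference over the mean of all probe sets was 0.52 for NFE2L2 and -0.12 for TKT. Metallothioneins bind zinc and copper, and their near-identical sequences limit how well probe sets separate them. Of 10 tested genes of this group 9 had differences below 0 and 1, MTF1, the zinc-sensing transcription factor, was called (-0.62 ± 0.20, adjusted p = 0.0432). That was 10% of the group, beside 13.5% of all genes called lower. The median was -0.97, and by 48 h array -1.26, -1.34 and -0.30. MT1X read 13.24, 13.44 and 13.54 at 12 h against 11.88, 11.64 and 13.05 at 48 h (difference -1.22 ± 0.44, adjusted p = 0.0633). Without 48 h replicate 3, 7 of the 10 were called lower, beside 1624 of all 10650 genes. MTF1 lost its call when any 1 control array other than 12 h replicate 2 was left out (adjusted p up to 0.144). Calls were lost for MTF1 without the filter on low values (adjusted p = 0.0899), MTF1 in a fit of the 6 control arrays alone (adjusted p = 0.0549) and MTF1 in a fit of the 6 control arrays alone with a variance trend (adjusted p = 0.0570). As the mean of all probe sets, the difference was -0.36 for MTF1.

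Growth factor and adhesion signals changed gene by gene. Among immediate early genes and MAPK feedback regulators 1 of 21 rose (4.76%) and 3 fell (14.3%), beside 12.4% and 13.5% of all genes. FOSL1, an AP-1 subunit, read 8.43, 8.11 and 8.57 at 12 h against 4.86, 5.82 and 6.30 at 48 h (probe set 204420_at) and fell by 2.71 ± 0.47 (adjusted p = 0.00427). IER5 fell by 0.76 ± 0.15 (adjusted p = 0.00647) and IER2 fell by 0.71 ± 0.17 (adjusted p = 0.0167), while ETV5, an ETS factor downstream of growth factor receptors, rose by 0.59 ± 0.15 (adjusted p = 0.0188). EGFR, the receptor for the EGF in the medium, read 11.59, 11.38 and 11.37 at 12 h against 12.42, 12.24 and 11.99 at 48 h and rose by 0.77 ± 0.16 (adjusted p = 0.00859). It was the 1 call among 10 EGF receptors and ligands (10%, beside 12.4% of all genes called higher). Of 26 YAP and TAZ genes 3 rose and 3 fell (11.5% each, beside 12.4% and 13.5% of all genes). The count that fell was 1, 1, 1, 1, 1 and 6 with 1 array left out. MYOF, a membrane repair protein, rose by 0.74 ± 0.09 (adjusted p = 0.00133), AJUBA, a LIM protein, rose by 0.81 ± 0.22 (adjusted p = 0.0238), F3, tissue factor, fell by 1.54 ± 0.24 (adjusted p = 0.00272), and NT5E, an ectonucleotidase, fell by 1.68 ± 0.51 (adjusted p = 0.0357). The reference targets CCN1 (difference 0.00 ± 0.37, adjusted p = 1) and CCN2 (-0.16 ± 0.61, adjusted p = 0.864) did not pass, and CCN2 read 10.93, 10.67 and 11.04 at 12 h against 9.63, 10.68 and 11.84 at 48 h, with 48 h arrays on both sides of 12 h. FOSL1, IER5, EGFR, MYOF and F3 stayed past the threshold in each of the 6 fits that left out 1 control array. NT5E lost its call when any 1 control array other than 48 h replicate 3 was left out (adjusted p up to 0.123). IER2 lost its call without 12 h replicate 1, 48 h replicate 1 or 48 h replicate 2 (adjusted p up to 0.0569). ETV5 lost its call without 12 h replicate 2, 12 h replicate 3 or 48 h replicate 1 (adjusted p up to 0.0697). AJUBA lost its call without 12 h replicate 1, 12 h replicate 2 or 48 h replicate 2 (adjusted p up to 0.0852). Not called in other fits were AJUBA and NT5E without the filter on low values (adjusted p = 0.0551 to 0.0925). Over all probe sets the mean difference was 0.42 for EGFR and -0.80 for NT5E.

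TGF-beta targets and mesenchymal genes were mostly lower, with 9 of 22 called lower (40.9%, beside 13.5% of all genes), 1 higher and a median of -0.54 (-0.84, -0.45 and -0.22 in the 48 h arrays). The count called lower was 2, 3 and 1 without 12 h replicates 1, 2 and 3, and 1, 2 and 8 without 48 h replicates 1, 2 and 3. Without 48 h replicate 1 the share of members called lower was below that of all genes (723 of 10650). TWIST1, a mesenchymal transcription factor, read 8.64, 8.26 and 8.11 at 12 h against 7.54, 7.06 and 7.54 at 48 h and fell by 0.96 ± 0.17 (adjusted p = 0.00511). SMAD3, which carries the TGF-beta signal, read 6.63, 6.30 and 7.22 at 12 h against 4.93, 4.67 and 5.67 at 48 h and fell by 1.63 ± 0.42 (adjusted p = 0.0206). TGFBR2, a receptor, fell by 0.77 ± 0.20 (adjusted p = 0.0207), and PMEPA1, a feedback inhibitor, fell by 0.76 ± 0.20 (adjusted p = 0.0198). SKIL, a SMAD corepressor, rose by 0.67 ± 0.13 (adjusted p = 0.00781). CDH2, N-cadherin, fell by 0.71 ± 0.22 (adjusted p = 0.0375), and VIM, vimentin, fell by 0.36 ± 0.11 (adjusted p = 0.0440). TWIST1 and SKIL stayed past the threshold in each of the 6 fits that left out 1 control array. CDH2 and VIM lost their calls when any 1 control array other than 48 h replicate 3 was left out (adjusted p up to 0.138). SMAD3 lost its call without 12 h replicate 1, 12 h replicate 3, 48 h replicate 1 or 48 h replicate 2 (adjusted p up to 0.0783). TGFBR2 lost its call without 12 h replicate 2, 12 h replicate 3, 48 h replicate 1 or 48 h replicate 2 (adjusted p up to 0.0769). PMEPA1 lost its call without 12 h replicate 1, 12 h replicate 3 or 48 h replicate 1 (adjusted p up to 0.0691). The call was also lost for VIM with the arrays shifted to 1 median (adjusted p = 0.0568), CDH2, SKIL and VIM with the mean over all probe sets of a gene (adjusted p = 0.0534 to 0.146), CDH2, SMAD3 and VIM without the filter on low values (adjusted p = 0.0509 to 0.0825) and VIM with quantile normalization repeated (adjusted p = 0.0630). Averaged over all probe sets of the gene, the difference was -0.82 for SMAD3, 0.26 for SKIL and -0.19 for VIM.

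Epithelial and matrix genes were called about as often as all genes or less. CDH1, E-cadherin, read 6.15, 6.44 and 5.71 at 12 h against 8.35, 7.43 and 6.91 at 48 h, higher on every 48 h array than at 12 h, with a difference that did not pass (1.47 ± 0.50, adjusted p = 0.0523). EPCAM, an epithelial adhesion molecule, rose by 0.54 ± 0.14 (adjusted p = 0.0177), CDH16, a kidney cadherin, rose by 0.63 ± 0.16 (adjusted p = 0.0188), and CLDN16, a claudin, rose by 1.29 ± 0.35 (adjusted p = 0.0238). GJB2, a connexin, fell by 1.25 ± 0.30 (adjusted p = 0.0163), or by 0.42 with its 48 h arrays, all below 4, set to 4, and KRT8 fell by 0.60 ± 0.18 (adjusted p = 0.0353). In all, 3 of 23 junction genes rose (13.0%, beside 12.4% of all genes) and 2 fell (8.70%, beside 13.5%), and the count that rose was 1, 3, 0, 0, 1 and 6 with 1 array left out. Of 24 matrix genes 3 rose (12.5%) and 2 fell (8.33%), and the count that fell was 2, 2, 0, 0, 0 and 2 with 1 array left out. LAMB1, a laminin chain, read 12.17, 12.10 and 11.99 at 12 h against 13.06, 13.03 and 12.79 at 48 h and rose by 0.88 ± 0.10 (adjusted p = 0.00108), and TNC, tenascin C, rose by 0.64 ± 0.14 (adjusted p = 0.0109). PLAUR, the urokinase receptor, read 8.41, 8.15 and 9.002 at 12 h against 6.29, 6.38 and 7.27 at 48 h and fell by 1.87 ± 0.46 (adjusted p = 0.0173), and COL6A1, a collagen VI chain, fell by 0.65 ± 0.16 (adjusted p = 0.0164). LAMB1 and TNC stayed past the threshold in each of the 6 fits that left out 1 control array. CLDN16 lost its call without 12 h replicate 1, 12 h replicate 3, 48 h replicate 1 or 48 h replicate 2 (adjusted p up to 0.0866). KRT8 lost its call without 12 h replicate 2, 12 h replicate 3, 48 h replicate 1 or 48 h replicate 2 (adjusted p up to 0.126). EPCAM, PLAUR and COL6A1 lost their calls without 12 h replicate 3, 48 h replicate 1 or 48 h replicate 2 (adjusted p up to 0.0676). CDH16 lost its call without 12 h replicate 1, 12 h replicate 3 or 48 h replicate 1 (adjusted p up to 0.0701). GJB2 lost its call without 12 h replicate 1 or 48 h replicate 1 (adjusted p up to 0.0607). Also not called were COL6A1 and TNC with the mean over all probe sets of a gene (adjusted p = 0.0607 to 0.1002), CLDN16 and KRT8 without the filter on low values (adjusted p = 0.0622 to 0.0716) and EPCAM in a fit of the 6 control arrays alone (adjusted p = 0.0503). The difference over the mean of all probe sets was 0.21 for TNC and -0.22 for COL6A1.

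Among kidney genes, 2 of 7 tested proximal tubule transporters, enzymes and factors rose (28.6%, beside 12.4% of all genes) and 0 fell. MIOX, a myo-inositol oxygenase of the proximal tubule, read 8.51, 8.24 and 8.20 at 12 h against 10.13, 10.02 and 9.44 at 48 h and rose by 1.55 ± 0.35 (adjusted p = 0.0125). SLC4A4, the sodium bicarbonate cotransporter, read 9.83, 9.91 and 9.67 at 12 h against 10.52, 11.09 and 10.75 at 48 h and rose by 0.98 ± 0.18 (adjusted p = 0.00532). DPP4 read 10.97, 11.10 and 10.57 at 12 h against 11.62, 11.08 and 11.61 at 48 h, with overlapping groups (difference 0.56 ± 0.22, adjusted p = 0.0826). SOX9 is a transcription factor switched on in injured and repairing tubules. It read 8.59, 8.93 and 8.46 at 12 h against 4.87, 4.99 and 4.91 at 48 h (probe set 202936_s_at), with the 3 values at 48 h nearly equal, and fell by 3.74 ± 0.24 (adjusted p = 0.000194). VCAM1, an adhesion molecule of failed repair that NF-kB also induces, fell by 1.86 ± 0.41 (adjusted p = 0.0113). CHI3L1, a secreted injury protein, read 6.55, 6.13 and 4.56 at 12 h against 8.83, 8.33 and 8.66 at 48 h and rose by 2.86 ± 0.44 (adjusted p = 0.00260). CLU, clusterin, rose by 0.52 ± 0.13 (adjusted p = 0.0195), and IGFBP7 rose by 0.60 ± 0.15 (adjusted p = 0.0181). The clinical injury markers HAVCR1, which encodes KIM-1 (difference -0.50 ± 0.26, adjusted p = 0.175), and LCN2, which encodes NGAL (0.35 ± 0.59, adjusted p = 0.679), did not pass and overlapped. MIOX, SLC4A4, SOX9, VCAM1 and CHI3L1 stayed past the threshold in each of the 6 fits that left out 1 control array. CLU lost its call without 12 h replicate 1 or 48 h replicate 1 (adjusted p up to 0.0718). IGFBP7 lost its call without 12 h replicate 3 or 48 h replicate 2 (adjusted p up to 0.0710). As means of all their probe sets, the differences were 1.44 for CHI3L1 and 0.28 for IGFBP7, and IGFBP7 was then not called (limma adjusted p = 0.421).

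Inflammatory lists had shares called lower near or above that of all genes, and shares called higher below it. CXCL5, a neutrophil chemokine, read 9.01, 8.95 and 9.67 at 12 h against 6.03, 6.66 and 7.24 at 48 h and fell by 2.56 ± 0.43 (adjusted p = 0.00380), and IL32, a cytokine, fell by 1.06 ± 0.21 (adjusted p = 0.00738). They were the 2 called of 13 chemokines and cytokines (15.4%, near the background of 13.5% lower). IL6 read 9.29, 7.95 and 9.20 at 12 h against 6.23, 7.49 and 8.19 at 48 h, with overlapping groups (difference -1.51 ± 0.66, adjusted p = 0.111). Of 15 NF-kB targets VCAM1, CD83 and TNFAIP2 fell (20.0%, beside 13.5% of all genes) and 0 rose. CD83, a surface glycoprotein, fell by 1.21 ± 0.31 (adjusted p = 0.0198), and TNFAIP2 fell by 0.68 ± 0.19 (adjusted p = 0.0260). TNFAIP6, a secreted hyaluronan-binding protein made under inflammatory signals, read 8.20, 8.66 and 9.37 at 12 h against 3.07, 3.70 and 5.30 at 48 h (probe set 206025_s_at) and fell by 4.72 ± 0.73 (adjusted p = 0.00260). Of 34 interferon genes 2 rose (5.88%, beside 12.4% of all genes) and 6 fell (17.6%, beside 13.5%). Their median was 0.00, which turned to -0.02 with the arrays shifted to 1 median, to 0.14 without 12 h replicate 1 and to -0.21 without 12 h replicate 3. With 1 array left out 0, 1, 0, 0, 0 and 3 rose and 0, 1, 2, 3, 0 and 5 fell. OAS3, an antiviral enzyme, read 8.51, 8.63 and 8.30 at 12 h against 6.35, 6.45 and 7.05 at 48 h and fell by 1.86 ± 0.46 (adjusted p = 0.0176), and ISG15, a ubiquitin-like protein, fell by 0.60 ± 0.17 (adjusted p = 0.0262). CXCL5, IL32 and TNFAIP6 stayed past the threshold in each of the 6 fits that left out 1 control array. CD83 lost its call without 12 h replicate 2, 12 h replicate 3, 48 h replicate 1 or 48 h replicate 2 (adjusted p up to 0.0715). TNFAIP2 and OAS3 lost their calls without 12 h replicate 1, 12 h replicate 2, 48 h replicate 1 or 48 h replicate 2 (adjusted p up to 0.0907). ISG15 lost its call without 12 h replicate 1, 12 h replicate 3 or 48 h replicate 2 (adjusted p up to 0.0908). Calls were lost for CD83, ISG15 and TNFAIP2 without the filter on low values (adjusted p = 0.0506 to 0.0551). Over all probe sets the mean difference was -0.34 for TNFAIP2 and -1.13 for OAS3.

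Circadian clock genes included 6 of 14 called higher (42.9%, beside 12.4% of all genes) and 1 lower, with a median of 0.73 and 0.90, 0.83 and 0.68 in the 48 h arrays. Samples at 12 h and 48 h are 36 h apart, so clock phase and culture age cannot be told apart. BHLHE41, the repressor DEC2, read 7.84, 7.75 and 7.47 at 12 h against 9.72, 10.01 and 10.47 at 48 h, all 48 h arrays far above 12 h, and rose by 2.38 ± 0.24 (adjusted p = 0.000977). NR1D2, the nuclear receptor REV-ERBbeta, read 7.96, 7.47 and 7.76 at 12 h against 9.30, 9.58 and 10.02 at 48 h and rose by 1.90 ± 0.27 (adjusted p = 0.00194). For both genes 48 h replicate 3 was the highest array. CIART, a clock repressor, read 4.60, 3.76 and 4.71 at 12 h against 6.84, 7.15 and 7.24 at 48 h and rose by 2.72 ± 0.42 (adjusted p = 0.00269). NFIL3, which represses the sites that DBP activates, rose by 2.18 ± 0.46 (adjusted p = 0.00955). DBP, a clock output factor, read 2.66, 2.64 and 2.58 at 12 h against 6.07, 4.66 and 3.68 at 48 h, so it was below 4 at 12 h and uneven across the 48 h arrays, and rose by 2.18 ± 0.65 (adjusted p = 0.0339), or by 0.91 with every array below 4, 48 h replicate 3 among them, set to 4. CRY1, a core repressor, rose by 0.53 ± 0.11 (adjusted p = 0.00778), and BMAL2, a relative of the clock activator BMAL1, fell by 0.98 ± 0.31 (adjusted p = 0.0407). BHLHE41, NR1D2, CIART, NFIL3 and CRY1 stayed past the threshold in each of the 6 fits that left out 1 control array. DBP and BMAL2 lost their calls when any 1 control array other than 48 h replicate 3 was left out (adjusted p up to 0.135). Averaged over all probe sets of the gene, the difference was 1.501 for BHLHE41 and 1.05 for DBP.

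Genes that respond to hydrocortisone and other glucocorticoids moved in opposite directions, with 2 of 10 called higher and 2 lower (20% each, beside 12.4% and 13.5% of all genes). TSC22D3, which encodes GILZ, read 7.94, 7.80 and 8.12 at 12 h against 10.09, 9.41 and 9.38 at 48 h and rose by 1.67 ± 0.42 (adjusted p = 0.0177), and GADD45A, described above, was the other. SGK1, a kinase that regulates sodium transport, read 12.82, 12.86 and 13.17 at 12 h against 10.29, 11.16 and 11.12 at 48 h and fell by 2.09 ± 0.54 (adjusted p = 0.0199), and FKBP5, a receptor co-chaperone, fell by 0.45 ± 0.14 (adjusted p = 0.0366). Of 18 BCL2 family and caspase genes 3 rose (1, 1, 1, 1, 1 and 4 with 1 array left out) and 3 fell. Each count was 16.7% of the list, beside 12.4% and 13.5% of all genes. BCL2L11, the death protein BIM, read 8.93, 8.89 and 8.73 at 12 h against 9.57, 9.72 and 9.33 at 48 h and rose by 0.69 ± 0.11 (adjusted p = 0.00352), and CASP2 fell by 1.15 ± 0.28 (adjusted p = 0.0153). Among cyclophilins, calcineurin and NFAT, the molecules that CsA acts on, 1 of 17 rose (5.88%) and 2 fell (11.8%) without drug, both below the shares of all genes. NFAT5, an osmotic stress factor, rose by 0.88 ± 0.17 (adjusted p = 0.00624), RCAN3, a calcineurin regulator, fell by 2.01 ± 0.39 (adjusted p = 0.00662), and PPIH, a spliceosomal cyclophilin, fell by 0.82 ± 0.22 (adjusted p = 0.0218). TIPARP, a target of the aryl hydrocarbon receptor, rose by 1.02 ± 0.13 (adjusted p = 0.00142). PTGES3, the Hsp90 co-chaperone p23, fell by 0.61 ± 0.12 (adjusted p = 0.00787). BCL2L11, NFAT5, RCAN3, TIPARP and PTGES3 stayed past the threshold in each of the 6 fits that left out 1 control array. FKBP5 lost its call when any 1 control array other than 48 h replicate 1 was left out (adjusted p up to 0.1003). SGK1 lost its call without 12 h replicate 1, 12 h replicate 2, 12 h replicate 3 or 48 h replicate 1 (adjusted p up to 0.0740). PPIH lost its call without 12 h replicate 2, 12 h replicate 3, 48 h replicate 1 or 48 h replicate 2 (adjusted p up to 0.0800). TSC22D3 lost its call without 12 h replicate 1, 12 h replicate 2 or 48 h replicate 1 (adjusted p up to 0.0670). CASP2 lost its call without 12 h replicate 3 or 48 h replicate 1 (adjusted p up to 0.0576). Not called in other fits were CASP2 with the mean over all probe sets of a gene (adjusted p = 0.0643), FKBP5, PPIH and SGK1 without the filter on low values (adjusted p = 0.0508 to 0.0569) and FKBP5 with a random block (adjusted p = 0.0659). The difference over the mean of all probe sets was 0.83 for TSC22D3, 0.35 for BCL2L11, -0.27 for CASP2, -0.90 for RCAN3 and -0.41 for PPIH.

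Several of the largest differences lay outside these pathways. PLA1A, a phosphatidylserine-specific phospholipase, read 2.68, 3.32 and 3.01 at 12 h against 8.36, 7.56 and 6.80 at 48 h (probe set 219584_at), below 4 on all 12 h arrays, and rose by 4.57 ± 0.73 (adjusted p = 0.00300), or by 3.57 with the 12 h arrays set to 4. Of tested genes, 133 were at or below 4 on all 3 arrays at 12 h and 45 of them were called higher, and such genes had to be higher elsewhere in the series to be tested. ARG2, the mitochondrial arginase, read 9.14, 8.87 and 9.31 at 12 h against 13.40, 12.59 and 11.34 at 48 h (probe set 203946_s_at) and rose by 3.34 ± 0.84 (adjusted p = 0.0188). LURAP1L read 5.25, 5.09 and 4.42 at 12 h against 9.27, 9.08 and 7.76 at 48 h (probe set 227443_at) and rose by 3.78 ± 0.96 (adjusted p = 0.0195). BEX2 read 7.70, 7.89 and 7.43 at 12 h against 11.91, 11.24 and 9.72 at 48 h (probe set 224367_at) and rose by 3.28 ± 0.90 (adjusted p = 0.0255). For ARG2, LURAP1L and BEX2, 48 h replicate 3 was the lowest 48 h array. ANK2, an ankyrin, read 5.74, 4.97 and 5.45 at 12 h against 8.93, 9.16 and 8.08 at 48 h (probe set 202920_at) and rose by 3.34 ± 1.06 (adjusted p = 0.0426). With the mean over all its probe sets the difference of ANK2 was 1.22, more than 1.5 times smaller.

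Among the falls, SLN, sarcolipin, a small regulator of the SERCA calcium pump, read 9.99, 9.34 and 10.41 at 12 h against 3.35, 4.04 and 8.06 at 48 h (probe set 205374_at), with 48 h replicate 3 far above the other 48 h arrays, and fell by 4.76 ± 1.34 (adjusted p = 0.0282). NAV3, a neuron navigator, read 6.73, 5.88 and 7.47 at 12 h against 2.27, 3.35 and 4.55 at 48 h (probe set 204823_at) and fell by 3.30 ± 0.58 (adjusted p = 0.00456). DPYSL3, a cytoskeletal protein, read 10.56, 10.99 and 10.99 at 12 h against 7.68, 7.86 and 8.52 at 48 h (probe set 201431_s_at) and fell by 2.82 ± 0.39 (adjusted p = 0.00171). ZBED2 read 8.22, 8.43 and 8.52 at 12 h against 5.48, 5.22 and 6.09 at 48 h (probe set 219836_at) and fell by 2.80 ± 0.55 (adjusted p = 0.00710). For these 4 genes too, 48 h replicate 3 was nearest to 12 h. PLA1A, NAV3, DPYSL3 and ZBED2 stayed past the threshold in each of the 6 fits that left out 1 control array. ARG2, BEX2, ANK2 and SLN lost their calls when any 1 control array other than 48 h replicate 3 was left out (adjusted p up to 0.116). LURAP1L lost its call without 12 h replicate 2, 12 h replicate 3, 48 h replicate 1 or 48 h replicate 2 (adjusted p up to 0.0682). The call was also lost for ANK2 with the mean over all probe sets of a gene (adjusted p = 0.0643), ANK2, ARG2, BEX2, LURAP1L and SLN without the filter on low values (adjusted p = 0.0532 to 0.110) and ANK2 with a random block (adjusted p = 0.0528). As the mean of all probe sets, the difference was -1.84 for DPYSL3.

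**Figure D3:**
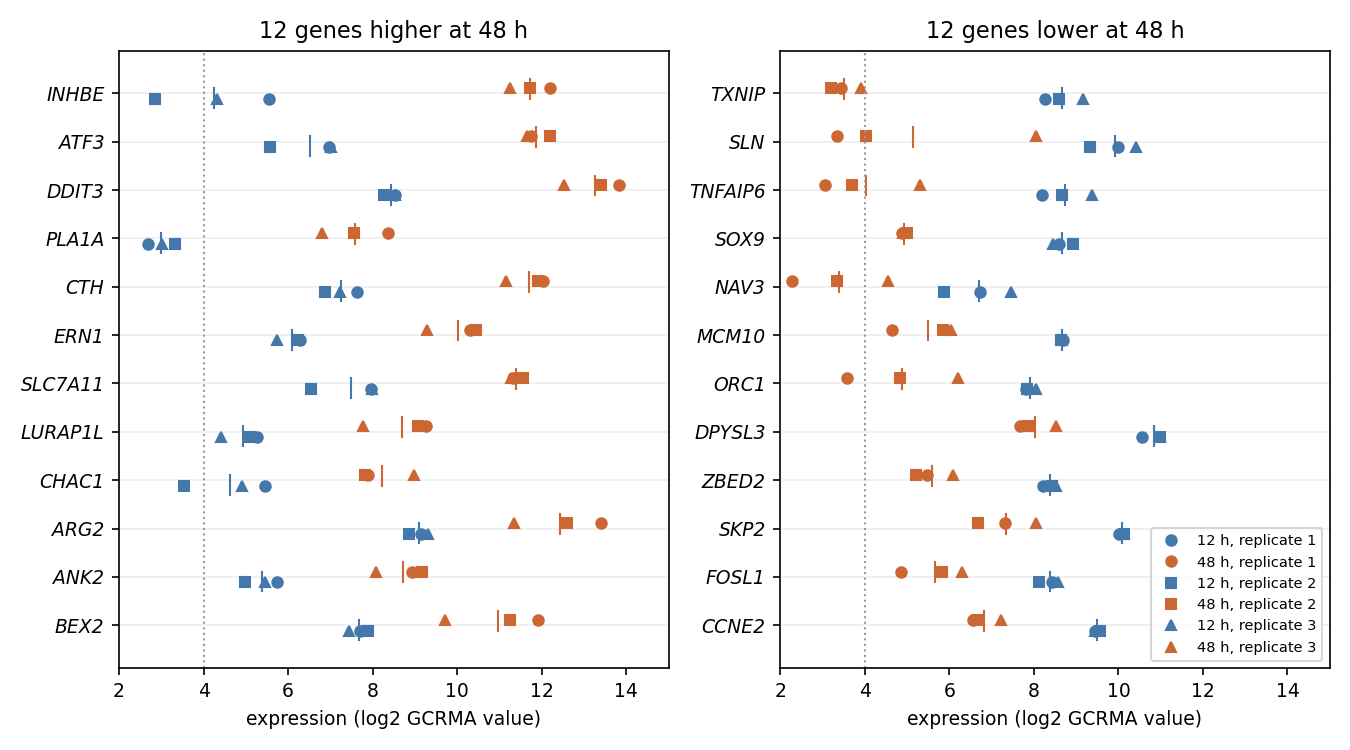
Points are the log2 values of the 6 control arrays for the 12 called genes with the largest rises (left) and the 12 with the largest falls (right), bars mark group means, and the dotted line marks the value of 4 used in the filter. The 12 h and 48 h arrays do not overlap for any of the 24 genes, and 48 h replicate 3 (orange triangle) is often the 48 h array nearest to 12 h, as for SLN at 8.06.

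The same interval was examined in cells given CsA, which share no array with the controls. Within a time, however, same-numbered control and CsA arrays deviated together (correlations 0.36 to 0.78), so the CsA cells are not an independent repeat. Of the 2749 genes called in controls 2732 had the same direction under CsA, and 1270 were called there in that direction. Over all 10650 tested genes, 1496 were called under CsA in either direction. The difference between the 2 time changes was tested for every gene and limma called 0 of 10650, with 164 at an unadjusted p under 0.05. With a replicate block it called 0 with 280 at an unadjusted p under 0.05, and with a random block 0 with 919. No gene's change is therefore shown here to be particular to control cells. Of genes that rose in controls 1108 of 1316 rose by more there than under CsA, and of genes that fell 1197 of 1433 fell by more (these genes were chosen on their control values).

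Side by side, the cell cycle lists had medians of -1.19 in controls and -1.10 under CsA for mitosis, and -1.12 and -1.12 for replication. Proteasome subunits had -0.38 and -0.40. The ATF4 list had 1.60 in controls and 0.45 under CsA. Of its 32 members 8 had an unadjusted p under 0.05 for the difference, beside 164 of all 10650 genes. With the random block for same-numbered arrays of a time, which deviated together, it was 24 of the 32, beside 919 of all 10650. INHBE differed by 7.47 in controls and 2.11 under CsA, CHAC1 by 3.59 and 0.26 and ASNS by 2.97 and 0.15. SOX9 differed by -3.74 and -2.63. After adjustment (limma) the smallest p for a difference over all genes was 1.00, and 0.332 with the random block, so no difference between the time changes was called for these or other genes.

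**Figure D4:**
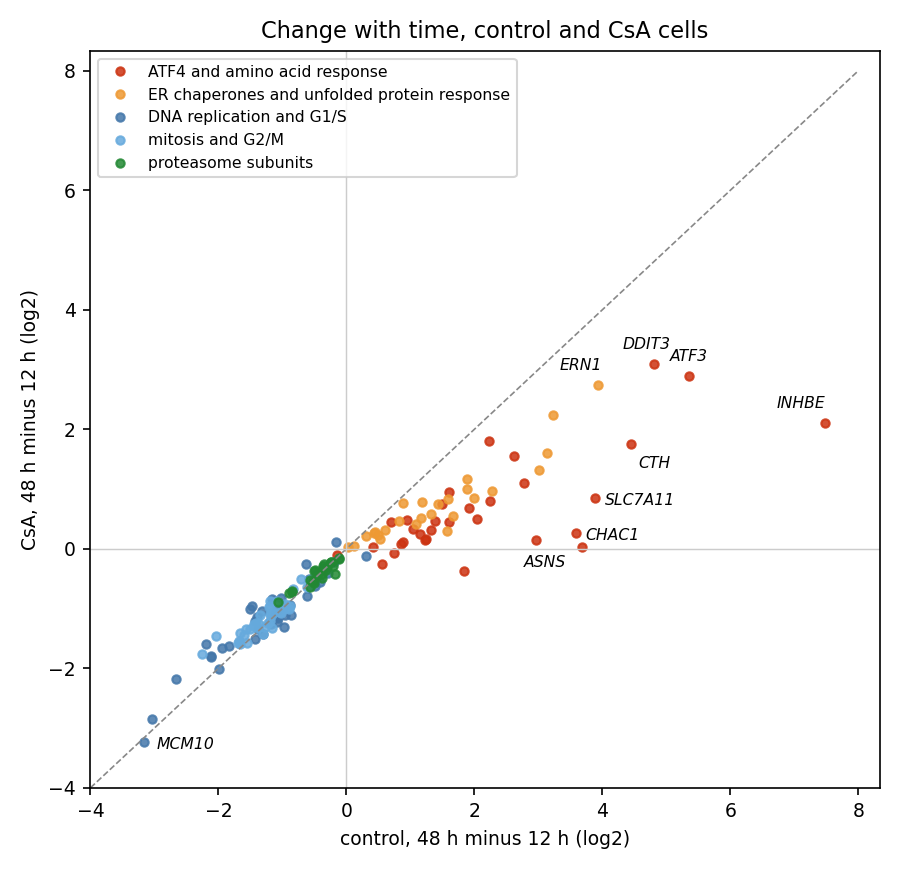
Each point is a tested member of 1 of 5 gene lists, with its log2 difference between 48 h and 12 h in controls on the x axis and under CsA on the y axis, and the dashed line marks equal changes. Replication, mitosis and proteasome genes lie near the line, while most ATF4 and ER genes lie below it, as does INHBE at 7.47 in controls and 2.11 under CsA.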

How the data were processed

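Messenger RNA of 12 HK-2 cultures was measured on Affymetrix arrays, 3 per group. The authors deposited log2 values, for which the submitters' processing notes name GCRMA. Version and settings are not given in sources used here. GCRMA subtracts background by probe sequence and equalises array distributions, so a shift of all genes would not show. Array medians were 2.85 to 2.91 in controls. Arrays have no read depth, and their number limits the precision. Of 54675 probe sets 41091 carried 1 gene symbol. Each of 19775 symbols was read from its probe set of highest mean (12 arrays).

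Groups came from the labels. limma 3.58.1 (R 4.3.3) was fitted with 4 group means to all 12 arrays (8 residual degrees of freedom), two-sided, with eBayes moderation without a trend. Genes needed a value above 4 on at least 3 arrays, and calls a Benjamini-Hochberg adjusted p at or below 0.05. The procedure was tested on simulated data. Same-numbered control arrays did not deviate together between times (correlations 0.01, -0.02 and 0.06 across genes), so no pairing was used between times. Within a time, same-numbered control and CsA arrays did (0.36 to 0.78), so the comparison of time changes was also fitted with a random block for them.

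Named genes were the 12 largest called differences in each direction without overlap, the 4 members per list with the largest absolute moderated statistic, and 20 genes such as MKI67, HSPA5 and VIM whatever their values. The members, lists and rules were chosen with earlier results of these data known. SPC25, PLK1 and further called list members were named after their values were seen. Promoters came from RefSeq (GRCh38.p14), matched by symbol, and the searches for TGATGNAA and the ER stress element were added after values were seen. Alternatives varied the arrays fitted, moderation, array weights, filter, probe set, scaling and blocks.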

Additional observations from a re-analysis of the deposited data

How the results depend on the processing

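Of 2749 genes past the threshold, 935 differed at least 2-fold. Array weights, estimated gene by gene because the default estimator did not converge, gave 5024 calls, and dropping the filter on low values gave 582 at least 2-fold. Leaving out 1 control array gave 1284 to 3210 calls, and 502 to 1355 at least 2-fold. The lowest counts came without 12 h replicate 3 and without 48 h replicate 1, and the highest without 48 h replicate 3. Same-numbered controls did not deviate together between times, and the replicate block gave 3609 calls, 1090 of them at least 2-fold. Under the replicate block 17 named genes gained a call, among them SCD, MT2A and CDH1, and 1 lost it. TKT turned to -0.12 (limma adjusted p 0.634) with the mean over all its probe sets, and the cause was not tested. Of 149 named genes that passed, 74 kept call and direction under every alternative, 72 lost the call with at least 1 control array left out, and 29 that did not pass did so under at least 1 alternative. The share of calls that were higher lay between 44.6% and 51.0%. Signal near background limits genes below 4 on a whole group.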

Other observations

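Further list members, named after their values were seen unless they are among the 4 strongest of a list, showed changes that the pathways above do not cover. ID1, a target of BMP signals, read 10.19, 10.28 and 10.79 at 12 h against 7.94, 8.18 and 9.54 at 48 h and fell by 1.87 ± 0.60 (adjusted p = 0.0435). GBP1, an interferon-induced GTPase, read 9.19, 8.65 and 9.11 at 12 h against 6.95, 6.92 and 8.52 at 48 h and fell by 1.52 ± 0.47 (adjusted p = 0.0375), while RIGI, a sensor of viral RNA, rose by 0.62 ± 0.20 (adjusted p = 0.0418) and IRF9, a subunit of the interferon-activated factor ISGF3, rose by 0.83 ± 0.26 (adjusted p = 0.0426). HRK, a BH3-only death protein, read 3.03, 3.37 and 3.36 at 12 h against 6.22, 6.13 and 4.33 at 48 h, below 4 on all 12 h arrays, and rose by 2.31 ± 0.75 (adjusted p = 0.0460), or by 1.56 with the 12 h arrays set to 4. KRT20, a keratin found in injured tubules, read 5.57, 5.22 and 4.57 at 12 h against 6.78, 6.38 and 7.54 at 48 h and rose by 1.78 ± 0.53 (adjusted p = 0.0330). NNMT, which methylates nicotinamide, read 13.67, 13.57 and 13.72 at 12 h against 11.82, 12.57 and 13.11 at 48 h and fell by 1.15 ± 0.37 (adjusted p = 0.0426), and ABCC1, an efflux pump, rose by 0.47 ± 0.15 (adjusted p = 0.0405). RGS5, listed as a pericyte marker, read 9.94, 9.88 and 8.78 at 12 h against 10.72, 10.67 and 10.63 at 48 h and rose by 1.14 ± 0.37 (adjusted p = 0.0477), while COL1A1 differed by -0.23 ± 0.12 and ACTA2 by 0.14 ± 0.23 without passing. KRT20 and RGS5 lost their calls when any 1 of the 6 control arrays was left out (adjusted p up to 0.160). ID1, GBP1, IRF9, HRK, NNMT and ABCC1 lost their calls when any 1 control array other than 48 h replicate 3 was left out (adjusted p up to 0.146). RIGI lost its call when any 1 control array other than 12 h replicate 2 was left out (adjusted p up to 0.145). Also not called were RGS5 with array weights (adjusted p = 0.0582), RGS5 with the arrays shifted to 1 median (adjusted p = 0.0548), ABCC1, NNMT and RGS5 with the mean over all probe sets of a gene (adjusted p = 0.0574 to 0.125) and ABCC1, NNMT and RGS5 without the filter on low values (adjusted p = 0.0686 to 0.115).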
